A study of Mus musculus with 10 samples.

Results

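Serpins are protease inhibitors that share a fold, and the 48 serpin genes described here were all genes whose symbol in the array's annotation starts with Serpin, a clade letter from a to i and a digit. Each had a probe set assigned to it alone, and they were 48 of 19938 named genes. They fell into clade A (15 genes, 1 of them the pseudogene Serpina4-ps1), clade B (24), clades F and I (2 each) and clades C, D, E, G and H (1 each). Whole oviducts came from PRKO mice, which are homozygous for a lacZ insertion that disrupts both isoforms of the progesterone receptor, and from PR+/- mice, which carry that insertion on a single allele and are the fertile controls. The insertion is present in all cells of the animal, so a difference need not arise in the oviduct. All animals were prepubertal, 21 to 23 days old, and received 5 IU of equine chorionic gonadotropin (eCG), which drives follicle growth. After 44 to 47 h they were given 5 IU of hCG (human chorionic gonadotropin) as the trigger for ovulation. Tissue was collected 8 h later and pooled from 3 animals per array, giving 5 arrays and 15 animals per genotype.

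A serpin exposes a flexible reactive loop that resembles a protease substrate. When the protease cuts the loop, the serpin folds it into its own body and traps the enzyme in a dead complex, so each molecule works a single time. Clade A holds mainly secreted plasma proteins, among them alpha-1-antitrypsin and hormone carriers, and clade B holds serpins without a classical signal peptide that act largely inside cells. The other clades include the inhibitors of thrombin, plasmin and complement and the collagen chaperone Serpinh1. In the reproductive tract, serpins and their target proteases act in matrix turnover, in the fluid around eggs and sperm, and in clotting and complement.

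The values are log2 signals, a scale inferred from their range. Signals of different probe sets reflect the probes as well as the transcript, so their order is not an order of transcript amounts. Pgr, the disrupted gene, had 6.31 to 6.39 in the 5 PRKO pools, against 7.27 to 7.55 in the 5 PR+/- pools, which sets the groups apart as labelled. As a check of the tissue, the epithelial genes Pax8 and Krt8 had mean signals of 8.50 and 9.28 in PRKO and of 8.51 and 9.30 in PR+/-, and the ciliated cell factor Foxj1 had 7.05 in PRKO and 7.16 in PR+/-. Of the 9 secretory epithelial markers that include Pax8 and Krt8, 1 was called, Wnt7a, which rose by 0.58 (adjusted p = 0.00116). Transcripts of the ovary stood high in PRKO replicate 3 and PR+/- replicate 4, where the steroidogenic enzyme gene Cyp11a1 read 7.10 and 7.04, against 3.41 to 4.68 in the other PRKO pools and 3.05 to 3.92 in the other PR+/- pools. In whole tissue, fewer cells of a type and less RNA per cell cannot be told apart.

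Few serpin genes differed between genotypes. Of the 48, 1 fell in PRKO oviducts (Serping1, the C1 inhibitor of complement), 1 rose (Serpinb10, a clade B serpin of blood-forming cells in humans) and 46 did not pass a limma p-value adjusted by Benjamini-Hochberg over all genes at 0.05. Among all 19938 genes, 4.96% were called, 3.87% fell and 1.09% rose, so the share of serpins called, 2 of 48, was near that background. The 5 PRKO values lay wholly outside the 5 PR+/- values for the same 2 serpins, against 7.20% of all genes. Without adjustment, 11 serpins had a p under 0.05, of which 9 were higher and 2 lower in PRKO. Among all genes 21.1% had such a p, 10.1% higher and 11.1% lower in PRKO, so the serpins' total was near that share. Of the 11 serpins, 8 were read at or below the median signal, and these 8 were all higher in PRKO. Among all genes read that weakly, 1502 were higher and 372 lower at that p. The count of 2 serpins was 0 without PRKO replicate 5, PR+/- replicate 1 or PR+/- replicate 5, and 1 without PRKO replicate 3 or PR+/- replicate 2. Without PRKO replicate 1 or PR+/- replicate 4 it stayed at 2, but Serpina9 was called in place of Serpinb10. Without PR+/- replicate 3 Serpinb5 took that place. The number of all genes called, 988, was 581 without PR+/- replicate 1 and 598 without PR+/- replicate 2. The median 95% interval of a serpin's log2 difference reached 0.22 to either side.

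**Figure D1:**
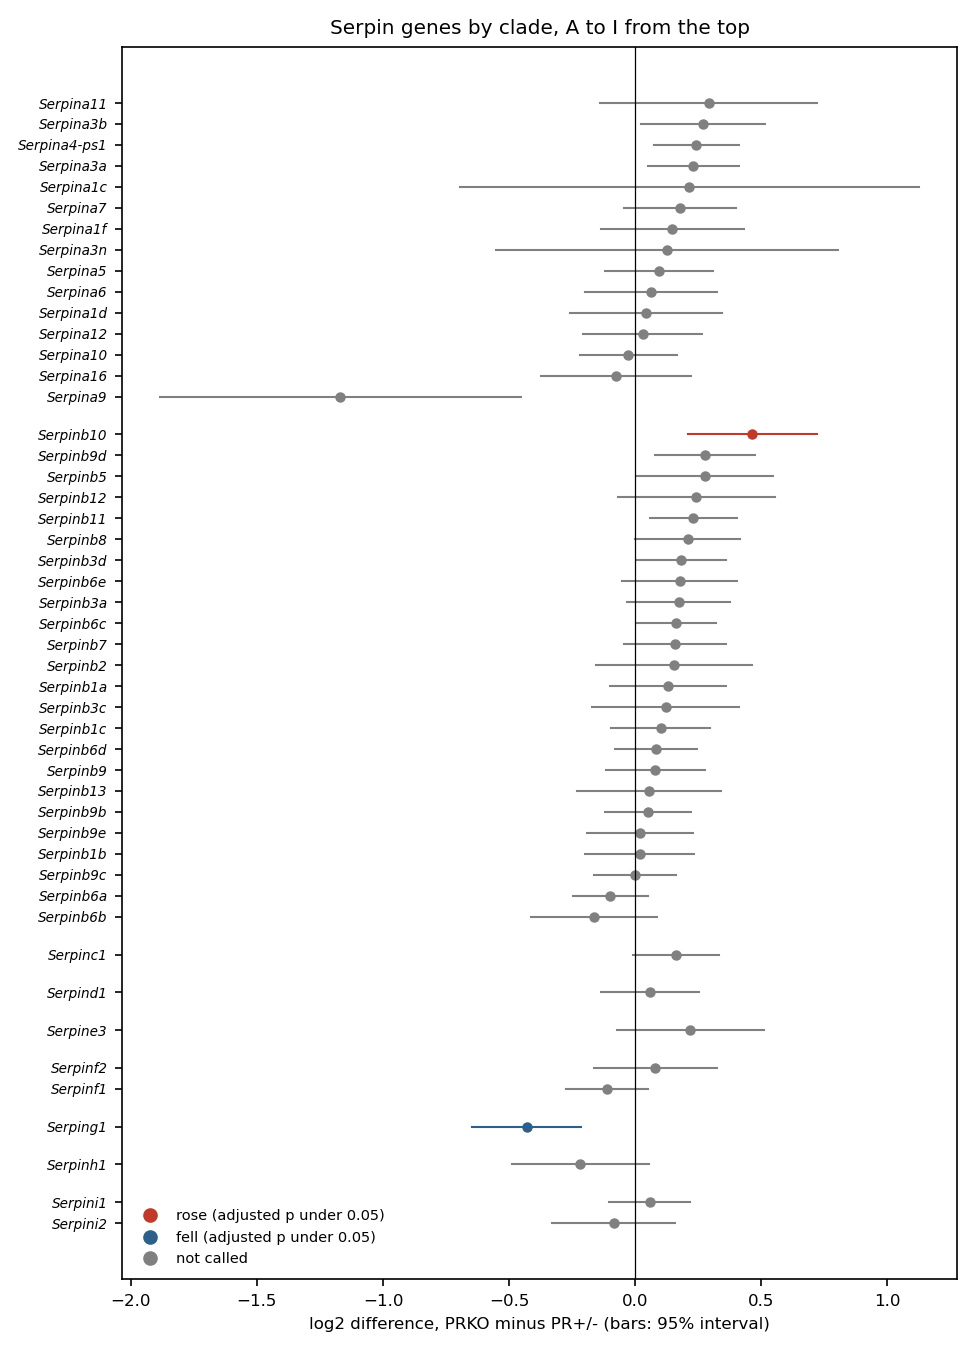
Log2 difference (PRKO minus PR+/-, x axis) of each of the 48 serpin genes, grouped by clade from A at the top to I at the bottom, with points for estimates and bars for 95% intervals from limma (n = 5 pools per genotype). Serping1 is the blue point at -0.43 and Serpinb10 the red point at 0.46, while grey members were not called, including Serpina9 at -1.17.

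Most serpin differences lay slightly above 0, in a pattern shared by weakly read genes in general. The median log2 difference of the 48 serpins was 0.11, against 0.03 for all genes, and 38 of the 48 lay above 0. However, 36 of the serpins were read at or below the median signal of all genes. Of those 36, 32 lay above 0 with a median of 0.13, while among all genes read that weakly 74.5% lay above 0 with a median of 0.09. Of the 12 serpins above the median signal, 6 lay above 0 and their median was -0.01, where genes of that range had a median of -0.04 and 37.8% above 0. The upward shift of weakly read serpins changed with the scaling of the arrays. After median centring 35 of the 48 lay above 0 with a median of 0.08, and 29 of the 36 weakly read ones did. After quantile normalization 27 of the 48 lay above 0 with a median of 0.04, and after cyclic loess normalization 26 did with a median of 0.03. The arrays' interquartile range was 3.13 to 3.42 in PRKO and 3.37 to 3.48 in PR+/-, and with it as a covariate 27 lay above 0 with a median of 0.05. Because this range tended to be lower in PRKO, fits with this covariate cannot fully separate it from genotype. A call lost in such a fit therefore has no assigned cause.

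**Figure D2:**
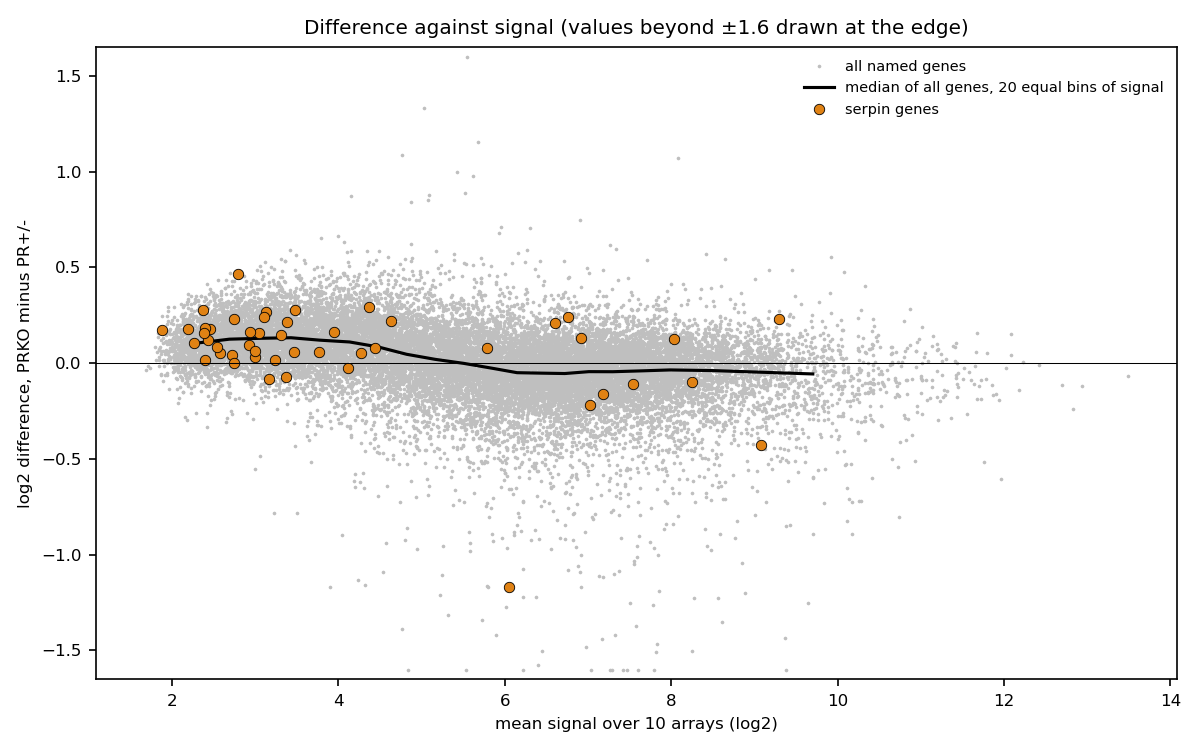
Log2 difference (PRKO minus PR+/-, y axis) against mean log2 signal over the 10 arrays (x axis) for all 19938 named genes (grey), their median in 20 bins of equal size (black line) and the 48 serpins (orange). The black line lies above 0 for weakly read genes and just below 0 for strongly read ones, and the weakly read serpins lie around it.

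Serping1, the sole clade G gene, encodes the C1 inhibitor, which blocks the first complement proteases as well as plasma kallikrein and factor XII. Its signal was 8.57, 8.96, 9.12, 8.91 and 8.74 in PRKO replicates 1 to 5, against 9.44, 9.19, 9.18, 9.27 and 9.36 in PR+/- replicates 1 to 5. Every PRKO pool was below every PR+/- pool, with PRKO replicate 1 the lowest. The log2 difference was -0.43 ± 0.10 (SE, 95% interval -0.65 to -0.21), a 1.35-fold lower signal (limma adjusted p = 0.0239). The call was lost without PRKO replicate 5, PR+/- replicate 1 or PR+/- replicate 5 (adjusted p 0.0536, 0.0719 and 0.0604), while the difference stayed between -0.50 and -0.36 over the 10 fits that each left out an array. With the interquartile range as a covariate it was -0.36, with p adjusted to 0.281. Without both pools of high ovarian transcripts, Serping1 had -0.50 (adjusted p = 0.0265).

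Serping1 moved beside marker genes of several cell types. The summed signal of 10 stromal markers was 13.42 to 13.56 in PRKO, against 13.59 to 13.75 in PR+/-, with 1 of the 10 called lower and 9 of the 10 at negative differences. That of 10 smooth muscle markers was 12.48 to 12.80 in PRKO and 13.30 to 13.45 in PR+/-, and 10 of 10 fell. Neither pair of ranges overlaps, but each sum adds linear signals before log2 is taken, so strongly read markers weigh most. In stroma these include Col1a1 and Vim, which did not pass (-0.11 ± 0.08 and -0.27 ± 0.08). Endothelial markers had 9.41 to 9.70 in PRKO and 9.66 to 9.75 in PR+/-, with 2 of 10 called lower and 8 of 10 at negative differences. Mesothelial markers had 11.32 to 11.80 in PRKO and 11.79 to 11.96 in PR+/-, with 2 of 8 called lower and 7 of 8 at negative differences. The stromal marker above 0 was Lum, at 0.37 ± 0.12. Of all genes, 3.87% fell. Most of these markers were read above the median signal, where 6201 of 9969 genes had negative differences. The part of these cell types in the Serping1 result was not tested. The measured proteases that the C1 inhibitor is known to block did not pass. C1s1, the complement protease C1s, had a log2 difference of -0.13 ± 0.13 at mean signals of 7.66 in PRKO and 7.80 in PR+/-. C1ra, the complement protease C1r, had a log2 difference of 0.12 ± 0.11, F12, coagulation factor XII, -0.002 ± 0.09, and the lectin pathway proteases Masp1 and Masp2 0.28 ± 0.11 and 0.05 ± 0.16. F11, coagulation factor XI, had 0.11 ± 0.10. These 6 were named as its targets, outside the naming rule.

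**Figure D3:**
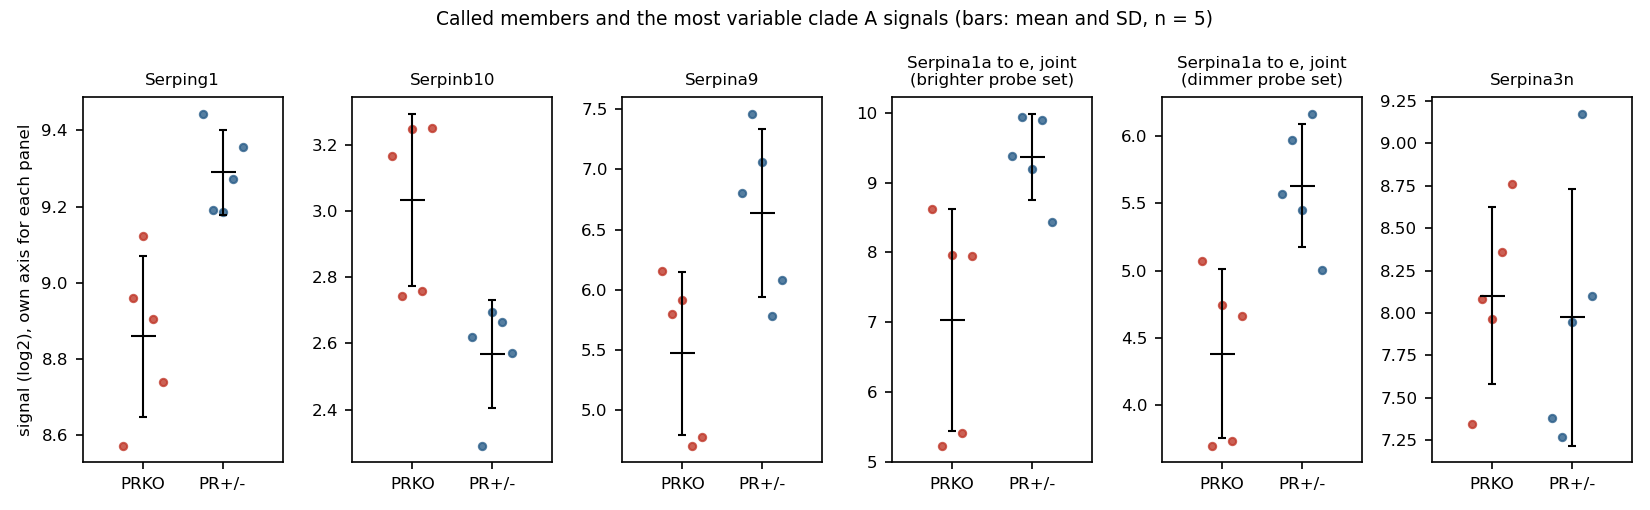
Log2 signal of each pool for the called members Serping1 and Serpinb10, for Serpina9, for the brighter and dimmer probe sets shared by 5 alpha-1-antitrypsin paralogs, and for Serpina3n, each panel with its own axis (PRKO left, PR+/- right, horizontal marks for the mean, bars for the SD, n = 5 pools). The genotypes do not overlap for Serping1 and Serpinb10 and overlap in 4 other panels, where pools of a genotype spread over more than 1 log2 unit.

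Serpinb10 was the serpin that rose. Its signal was 3.16, 2.74, 3.25, 2.76 and 3.25 in PRKO replicates 1 to 5, against 2.62, 2.29, 2.69, 2.66 and 2.57 in PR+/- replicates 1 to 5. The ranges do not overlap, though PRKO replicates 2 and 4 lay just above the highest PR+/- pool. The log2 difference was 0.46 ± 0.12 (SE, limma adjusted p = 0.0390). This is a weak signal, at the 8.93rd percentile of all genes, where background may make up much of the reading. The call did not hold when any array but PRKO replicate 2 or PRKO replicate 4 was left out (adjusted p 0.0559 to 0.106), nor after quantile normalization (0.36, adjusted p = 0.0861) or cyclic loess (0.36, adjusted p = 0.0716). Adding the interquartile range to the fit gave 0.20 (adjusted p = 0.559), and leaving out both pools of high ovarian transcripts gave 0.44 (0.123) for Serpinb10. Leukocyte markers, of which 0 of 13 were called, had a summed signal of 8.76 to 8.99 in PRKO, against 8.71 to 8.89 in PR+/-. Of the 13, 10 had differences above 0. Only 3 of them were read above the median signal, and 74.5% of all genes read at or below it lay above 0. The part of leukocytes in the Serpinb10 result was not tested.

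Serpinb10 lies in a row of 12 neighbouring clade B genes that runs from Serpinb5 to Serpinb8. Of the 11 measured, 11 had differences above 0, from 0.05 for Serpinb13 to 0.46 for Serpinb10, as did 11 after median centring. The count was 10 after quantile or cyclic loess normalization and 8 with the interquartile range as a covariate. Most of them, including Serpinb2, Serpinb7, Serpinb13 and the squamous epithelial group Serpinb3a, Serpinb3c and Serpinb3d, were read at 3.05 or less on average. Serpinb5, a serpin known as maspin that does not inhibit proteases, had 0.28 ± 0.13 (adjusted p = 0.225), and passed once PR+/- replicate 3 was left out (0.40, adjusted p = 0.0296).

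The remaining 3 genes of that row were read well above the median. Serpinb11, which inhibits trypsin-like proteases in mice, had 9.53, 9.34, 9.30, 9.51 and 9.35 in PRKO replicates 1 to 5, against 9.19, 9.23, 9.13, 9.01 and 9.32 in PR+/- replicates 1 to 5. A single PR+/- pool, replicate 5, reached the PRKO range. Its log2 difference was 0.23 ± 0.08 (adjusted p = 0.120), at the 96.9th percentile of signal, and rose to 0.30 after quantile normalization, where it passed (adjusted p = 0.0461). After cyclic loess it was 0.29 at an adjusted p of 0.0519. Serpinb12, another inhibitor of trypsin-like proteases, and Serpinb8, an inhibitor of furin, had 0.24 ± 0.15 and 0.21 ± 0.10 (adjusted p 0.356 and 0.239). They had 0.28 and 0.24 after quantile normalization and passed in none of the settings run.

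The sequences upstream of the called Serpinb10 and of Serpinb11, the strongly read gene of the same row, are shown to compare neighbours read at opposite ends of the signal range. They are the 250 bases before the annotated start in RefSeq, build GRCm38.p6, at chr1:107528753-107529002 and chr1:107362064-107362313, both on the plus strand. Capitals mark matches, on either strand, to ACANNNTGT, the core of the palindrome that progesterone, glucocorticoid and androgen receptors bind, or to TGTTCT, the single site of that palindrome.
Serpinb10: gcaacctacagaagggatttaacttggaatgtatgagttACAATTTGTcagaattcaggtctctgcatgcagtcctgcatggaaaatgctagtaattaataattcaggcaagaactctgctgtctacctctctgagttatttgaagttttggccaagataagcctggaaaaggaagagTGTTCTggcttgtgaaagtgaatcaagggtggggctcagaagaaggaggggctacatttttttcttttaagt
Serpinb11: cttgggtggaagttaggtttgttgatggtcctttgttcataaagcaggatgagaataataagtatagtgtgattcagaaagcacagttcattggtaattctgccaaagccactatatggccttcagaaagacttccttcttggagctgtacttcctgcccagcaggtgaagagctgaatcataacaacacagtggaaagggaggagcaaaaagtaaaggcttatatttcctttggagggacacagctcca
Serpinb10 held the core 211 bases and the single site 72 bases before the start, and Serpinb11 held neither. Of the 41 members with an entry, 6 held the core (Serpina3n, Serpinb8, Serpinb9d, Serpinb10, Serpinb12 and Serpini2) and 14 the single site. Over all 32851 promoters of the same length, 5.84% held the core and 16.1% the single site. These shares are of single promoters, while a member counted if any of its entries matched, so the 2 measures differ. The log2 differences of those 6 genes ran from -0.08 to 0.46. A match is a run of letters and was not tested as a binding site.

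The other clade B row, of 16 genes from Serpinb1a to Serpinb6a, had 13 measured and 0 called, with differences from -0.16 to 0.28. It holds the intracellular guards of leukocytes and other cells against their own granule proteases. Serpinb6a, an inhibitor of cathepsin G, had 8.10 to 8.34 in PRKO and 8.26 to 8.34 in PR+/-. Its difference of -0.10 ± 0.07 had a 95% interval of -0.25 to 0.05. Its paralog Serpinb6b had -0.16 ± 0.12, Serpinb1a, which blocks neutrophil elastase, 0.13 ± 0.11, and Serpinb9, which blocks granzyme B, 0.08 ± 0.09. Over these 4 genes the 95% intervals ran from -0.41 at the lowest to 0.36 at the highest. Their proteases, named for that role outside the naming rule, were read weakly. Ctsg, cathepsin G, had 0.42 ± 0.12 (adjusted p = 0.0583), Gzmb, granzyme B, 0.31 ± 0.13 (0.179), and Elane, neutrophil elastase, 0.11 ± 0.08 (0.455). The members Serpinb1b, Serpinb1c, Serpinb6c, Serpinb6d, Serpinb6e, Serpinb9b, Serpinb9c, Serpinb9d and Serpinb9e had mean signals of 2.19 to 4.27. Such close paralogs may share probes' targets, so their values are uncertain.

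**Figure D4:**
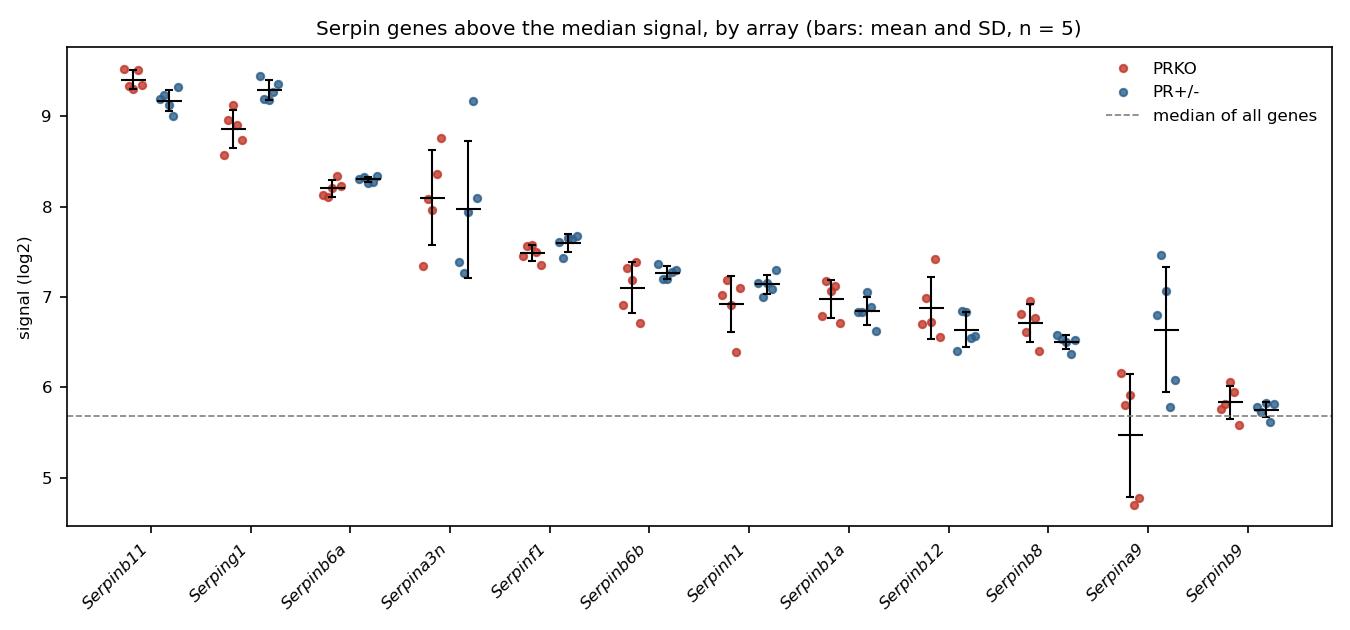
Log2 signal (y axis) of the 12 serpins above the median of all genes (dashed line) in each pool, PRKO left and PR+/- right of each gene, with horizontal marks for the mean and bars for the SD (n = 5 pools). Serping1 is the gene here whose genotypes do not overlap, and Serpina3n and Serpina9 have the widest spread between pools.

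In clade A, 0 of 15 genes were called by limma at an adjusted p of 0.05, while 4 had an unadjusted p under 0.05 (Serpina9 lower, and Serpina3a, Serpina3b and Serpina4-ps1 higher in PRKO), near the 21.1% of all genes. Serpina9, known in humans as a serpin of germinal centre B cells, had the largest difference among the 48 genes with a probe set of their own. Its signal was 6.15, 5.80, 5.91, 4.70 and 4.78 in PRKO replicates 1 to 5, against 6.81, 7.46, 7.06, 5.78 and 6.08 in PR+/- replicates 1 to 5. PR+/- replicates 4 and 5 fell within or near the range of PRKO replicates 1 to 3, and PRKO replicates 4 and 5 lay lowest. The difference was -1.17 ± 0.33 (SE, 95% interval -1.88 to -0.45), with an adjusted p of 0.0608. It passed without PRKO replicate 1 (-1.34, adjusted p = 0.0403), without PR+/- replicate 4 (-1.38, 0.0302), and without the dimmest 30% or 50% of probe sets (0.0476 and 0.0326). Without both pools of high ovarian transcripts Serpina9 had -1.50 (adjusted p = 0.0332). With the interquartile range as a covariate it was -0.72 (adjusted p = 0.553). Its pooled SD of 0.69 stood at the 99.9th percentile of all genes.

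Serpina3n, an acute-phase serpin that blocks granzyme B and elastases, was as variable. It had 7.34, 8.08, 7.96, 8.36 and 8.76 in PRKO replicates 1 to 5, against 7.38, 7.27, 7.95, 9.17 and 8.10 in PR+/- replicates 1 to 5. Each genotype spanned more than 1 log2 unit, and PR+/- replicate 4, a pool with high ovarian transcripts, was the highest. PRKO replicate 3, the other such pool, lay within the 7.34 to 8.76 of the other PRKO pools. The difference was 0.13 ± 0.32 (95% interval -0.55 to 0.80, adjusted p = 0.845), which leaves room for a rise or a fall. Serpina1c, an alpha-1-antitrypsin paralog, ran from 2.58 to 4.40 in PRKO and from 1.99 to 4.46 in PR+/-, with a difference of 0.22 ± 0.42. Serpina11 had 4.005 to 5.33 in PRKO, highest in replicate 1, and 4.03 to 4.41 in PR+/-.

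Probe sets shared by paralogs lay outside the rule for members but held the strongest alpha-1-antitrypsin signal. Alpha-1-antitrypsin, a plasma inhibitor of neutrophil elastase, is encoded in mice by several near-identical genes. Of 53 serpin probe sets, 5 carried several symbols, and 2 of these were assigned jointly to Serpina1a, Serpina1b, Serpina1c, Serpina1d and Serpina1e. The brighter probe set read 8.62, 5.23, 7.96, 5.41 and 7.94 in PRKO replicates 1 to 5, against 9.38, 9.94, 9.19, 9.91 and 8.44 in PR+/- replicates 1 to 5. PRKO replicates 2 and 4 were far below all other pools, and PRKO replicate 1 exceeded PR+/- replicate 5. In a fit of all 35557 rows, of which 787 were called, the difference was -2.34 ± 0.66 (5.06-fold lower, 95% interval -3.79 to -0.89, limma adjusted p = 0.105). The dimmer probe set gave -1.25 ± 0.30 (adjusted p = 0.0628), and passed without PRKO replicate 1 (-1.42, adjusted p = 0.0407). Hepatocyte markers were read beside it, and their part in the result was not tested. Alb, serum albumin, averaged 3.07 in PRKO and 3.03 in PR+/-, and the summed signal of 10 hepatocyte markers was 8.30 to 8.62 in PRKO and 8.51 to 8.71 in PR+/-, with 1 of the 10, the retinol carrier gene Rbp4, called lower (-0.88 ± 0.08, adjusted p = 1.65e-05). PRKO replicate 4, a pool low for the shared probe set, had the lowest sum, 8.30. PRKO replicate 2, the lowest pool for that probe set, had a sum of 8.56, within the PR+/- range. Trf, the transferrin gene, was the most strongly read of the 10 (7.45 in PRKO and 7.47 in PR+/-) and weighs most in this sum of linear signals. The sum therefore says little of weakly read markers such as Alb and is no measure of hepatocyte content. The other 3 shared probe sets, assigned to Serpinb9d, Serpinb9e, Serpinb9f and Serpinb9g, had differences of 0.19 to 0.26 and did not pass.

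The upstream sequences of Serpina1a and Serpina1c show how close these paralogs are. They are again the 250 bases before the start (RefSeq, build GRCm38.p6), at chr12:103863620-103863869 and chr12:103904951-103905200 on the minus strand, with the same meaning of capitals.
Serpina1a: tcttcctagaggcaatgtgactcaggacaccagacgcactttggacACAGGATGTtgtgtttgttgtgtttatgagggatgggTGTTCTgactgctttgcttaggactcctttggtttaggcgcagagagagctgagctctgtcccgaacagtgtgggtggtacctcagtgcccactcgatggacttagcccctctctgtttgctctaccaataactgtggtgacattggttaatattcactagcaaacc
Serpina1c: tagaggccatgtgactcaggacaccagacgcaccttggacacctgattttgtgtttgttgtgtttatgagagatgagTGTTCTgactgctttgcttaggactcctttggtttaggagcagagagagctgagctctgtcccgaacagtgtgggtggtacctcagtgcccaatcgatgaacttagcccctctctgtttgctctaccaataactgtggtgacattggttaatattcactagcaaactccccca
Aligned end to end with free end gaps, they shared 234 of 244 aligned bases (95.9%). Over the 10 pairs of the 5 paralogs the identity of aligned bases was 92.1% to 98.0%. Serpina1a held the core 204 bases and the single site 167 bases before the start, and Serpina1c held the single site at 173 bases.

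The rest of clade A was read weakly in both genotypes. Serpina6 and Serpina7, the plasma carriers of corticosteroids and of thyroid hormone, had mean signals of 3.03 and 2.55 in PRKO and of 2.96 and 2.37 in PR+/-. Serpina5, the inhibitor of activated protein C, Serpina10, which blocks coagulation factor Xa, and Serpina12, the adipokine vaspin, had differences of 0.09, -0.03 and 0.03 (adjusted p at least 0.613). Serpina16, Serpina1d and Serpina1f had -0.08, 0.04 and 0.15. Serpina3a, Serpina3b and the pseudogene Serpina4-ps1 had differences of 0.23 to 0.27, at adjusted p-values of 0.0968 to 0.200. A row of 23 neighbouring clade A genes runs from Serpina10 to Serpina3n, and 13 of them were measured. It does not include Serpina7, and Serpina4-ps1 was not placed. Of those 13, 10 lay above 0, as did 9 after median centring or with the interquartile range as a covariate and 6 after quantile or cyclic loess normalization.

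The serpins of clotting and fibrinolysis in the other clades showed no called difference. Serpinc1, antithrombin, had 4.05, 4.19, 3.99, 3.83 and 4.09 in PRKO replicates 1 to 5, against 3.92, 3.75, 3.95, 3.90 and 3.81 in PR+/- replicates 1 to 5 (difference 0.16 ± 0.08, adjusted p = 0.264). Serpind1, heparin cofactor II, had 3.60, 3.33, 3.51, 3.46 and 3.60 in PRKO, against 3.19, 3.49, 3.44, 3.43 and 3.66 in PR+/- (0.06 ± 0.09, 0.739). The genotypes overlap for both genes. Serpinf2, the plasmin inhibitor, had a difference of 0.08 ± 0.11 (0.716). Serpini1, neuroserpin, which blocks tissue plasminogen activator, had 3.65, 3.72, 3.81, 3.82 and 3.97 in PRKO and 3.77, 3.69, 3.79, 3.71 and 3.73 in PR+/- (0.06 ± 0.07, 0.686). Serpini2 had -0.08 ± 0.11. Serpine3 had 4.50, 4.60, 4.64, 4.70 and 5.24 in PRKO, against 4.25, 4.34, 4.56, 4.78 and 4.66 in PR+/- (0.22 ± 0.14, 0.373), with PRKO replicate 5 above the rest.

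The serpins of clades F and H that do not act on proteases were read strongly. Serpinf1, pigment epithelium-derived factor, a secreted inhibitor of vessel growth, had 7.46, 7.56, 7.57, 7.50 and 7.36 in PRKO replicates 1 to 5, against 7.61, 7.43, 7.65, 7.64 and 7.68 in PR+/- replicates 1 to 5. PR+/- replicate 2 lay within the PRKO range. Its difference of -0.11 ± 0.08 had a 95% interval of -0.27 to 0.05 (adjusted p = 0.414). Serpinh1, the collagen chaperone of the endoplasmic reticulum, had 7.02, 7.18, 6.91, 6.39 and 7.10 in PRKO, against 7.16, 7.001, 7.15, 7.09 and 7.30 in PR+/-. PRKO replicate 4 was the lowest. Its difference was -0.22 ± 0.13 (adjusted p = 0.343), and -0.09 without that pool, against -0.28 to -0.18 when any other was left out. Among 18 genes of procollagen folding and secretion beside Serpinh1, 3 fell, 0 rose and 15 did not pass, with a median of -0.17. Of all genes, 3.87% fell. All 18 were read above the median signal, where 669 of 9969 genes fell and the median was -0.04. The 3 that fell were P4ha2, a prolyl hydroxylase subunit (-0.56 ± 0.12, adjusted p = 0.0190), Plod1, a lysyl hydroxylase (-0.44 ± 0.10, 0.0257), and Ppib, a prolyl isomerase (-0.30 ± 0.08, 0.0498). That count was 5 without PRKO replicate 1, 0 without PR+/- replicate 1, and 1 without PRKO replicate 3, PRKO replicate 5, PR+/- replicate 2, PR+/- replicate 3 or PR+/- replicate 5. The highest adjusted p with an array left out was 0.0572 for P4ha2, 0.0761 for Plod1 and 0.131 for Ppib.

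Among 36 proteases that serpins block or that act in the same cascades, 1 rose, 1 fell and 34 did not pass. Of all genes, 1.09% rose and 3.87% fell. The median of the 36 was 0.08, against 0.03 for all genes and 0.09 for all genes read at or below the median signal. Of the 36, 13 were read above that signal. Prtn3, proteinase 3 of neutrophils, rose by 0.48 ± 0.10 (adjusted p = 0.0138), at mean signals of 4.57 in PRKO and 4.09 in PR+/-. Htra1, a secreted protease of matrix, fell by 0.30 (± 0.07, 0.0249). Its call was lost without PRKO replicate 3, PR+/- replicate 2, PR+/- replicate 3 or PR+/- replicate 4 (adjusted p 0.0519 to 0.0704), each leaving a count of 1, while 4 were called without PRKO replicate 2 or PRKO replicate 4. The plasminogen activators Plat and Plau, singled out for their role, had -0.27 ± 0.08 and -0.39 ± 0.13 (adjusted p 0.0838 and 0.114).

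Cofactors and receptors of these pathways included several called genes. The list held 29 measured genes: 7 fell, 22 did not pass and 0 rose, with a median of -0.09. Among all genes 3.87% fell and 1.09% rose. Of the 29, 18 were read above the median signal, where 669 of 9969 genes fell and the median was -0.04. Lrp2, the endocytic receptor megalin, which takes up protease and serpin complexes among other ligands, fell by 1.42 (± 0.11, 2.67-fold lower, adjusted p = 2.07e-06). Hspg2, the heparan sulfate proteoglycan perlecan, fell by 0.58 (± 0.08), S100a10, a cell surface plasminogen receptor, by 0.57 (± 0.08), and Lrpap1, the chaperone of LRP receptors, by 0.34 (± 0.08, adjusted p = 0.0201). Lrpap1 did not pass without PRKO replicate 3, PR+/- replicate 1 or PR+/- replicate 2 (0.0507 to 0.0656). The count was 4 without PRKO replicate 4, PR+/- replicate 3 or PR+/- replicate 4, and 3 without PR+/- replicate 1 or PR+/- replicate 2.

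Protease inhibitors outside the serpin family included larger falls than Serping1, the called serpin that fell. Serpina9 and the brighter shared alpha-1-antitrypsin probe set, neither of them called, had estimates of -1.17 and -2.34. Of 32, 6 fell, 1 rose and 25 did not pass, with a median of 0.02. Among all genes 3.87% fell and 1.09% rose, with a median of 0.03. Wfdc15b and Wfdc1, small secreted proteins with a whey acidic protein domain, fell by 1.23 (± 0.12) and 1.08 (± 0.10), Pi15, a secreted trypsin-binding protein, by 0.90 (± 0.08), and Reck, a membrane inhibitor of metalloproteinases, by 0.58 (± 0.08). The adjusted p of these 4 was at most 3.57e-04. A2m, a broad protease trap of plasma, was the 1 that rose (0.31 ± 0.07, adjusted p = 0.0190), and was named after its value was seen. Its call was lost without PRKO replicate 3 or PR+/- replicates 2, 3 or 5 (0.0509 to 0.0652). It was also lost for A2m after quantile normalization (0.0504) or cyclic loess (0.0541), with the interquartile range as a covariate (0.154), without both pools of high ovarian transcripts (0.0836) and without PRKO replicates 1 and 5 (0.0506).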

How the data were processed

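Gene expression was measured in 5 PRKO and 5 PR+/- pools on Affymetrix whole-transcript arrays, with biotin-labelled cRNA per the labels' protocols. Each probe set has 1 value per array as deposited by the authors, and the deposited values (1.09 to 13.6) were taken as log2 signals from their range, since no label states the scale. Partek is the tool named in the submitters' processing notes. Its version, steps and normalization are not stated in these sources. Array medians were 5.20 to 5.28, so no further normalization was applied. Of 35557 rows, 21789 carried 1 gene symbol in the platform annotation, 1621 several and 12147 none. Where a gene had several probe sets the highest mean over the arrays stood for it, which left 19938 genes. No serpin had more than 1 probe set of its own. A table of 63 protein-coding serpin genes (RefSeq, GRCm38.p6) gave names and neighbours, and 47 of them were measured. The other 16 were not analysed here.

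The comparison used lmFit and eBayes of limma 3.58.1 under R 4.3.3 (genotype as the only term, moderated variances), with p-values adjusted by Benjamini-Hochberg over all 19938 genes. Values with ± are SE of the log2 difference. Each pool is a separate sample, and the p-values rest on the variation among pools. Precision is limited by the number of arrays, and no background or detection values were used, so weak signals may understate changes. On simulated data for this comparison, the procedure run on 19938 genes found 18% of the 50 genes given a 1.25-fold change, 80% of those given 1.5-fold, 98% of those given 2-fold and 100% of those given 3-fold, and 12 of its 160 calls were false. The members, gene lists and several alternatives were chosen with earlier results of these data known. The naming rule gave values by array for called members, for members whose groups did not overlap and for the member of highest signal in each clade, and named up to 4 called genes of each list by smallest p. Serpina9, Serpina11, Serpina1c and the shared probe sets were described after their values were seen. Deviations from the group mean correlated at 0.104, 0.125, -0.013, 0.129 and 0.159 between the pools numbered 1 to 5. Number 3 lay below the limit of 0.1 and the other numbers above it, so pools were not treated as pairs. Alternatives were other normalizations, filters on dim probe sets, probe set means, other variance models, array weights, a replicate block, the interquartile range of each array as a covariate, and arrays left out. Promoter sequences came from RefSeq (GRCm38.p6), with entries for 41 of 48 members. Members without an entry were Serpina10, Serpina4-ps1, Serpina6, Serpina9, Serpinb13, Serpinb1a and Serping1.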

Additional observations from a re-analysis of the deposited data

Results flagged for a closer look

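Single pools stood apart from the other 4 of their genotype by Dixon's test in 4 of 98 groups examined (48 serpins and Pgr in each genotype), and chance gives about 1 in 20. Serpine3 read 5.24 in PRKO replicate 5, against 4.50 to 4.70 in the other PRKO pools. Serpinb5 read 3.85 in PR+/- replicate 3, against 3.15 to 3.33 in the other PR+/- pools, and Serpini2 read 3.63 in that same pool, against 3.03 to 3.18. Serpinf1 read 7.43 in PR+/- replicate 2, against 7.61 to 7.68 in the other PR+/- pools. Without PR+/- replicate 3 the difference of Serpinb5 passed (0.40, limma adjusted p = 0.0296), and without PRKO replicate 5 that of Serpine3 was 0.09.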

How the results depend on the processing

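Pgr kept its fall in all 23 alternatives run (log2 -1.10 to -1.02), and with each array left out it stayed between -1.10 and -1.03. No direction of a called serpin turned in any of them. The count of called serpins (2) was 1 after cyclic loess, 0 without moderation, 0 with the interquartile range as a covariate, 0 without PRKO replicates 1 and 5 (the least correlated), and 11 at an unadjusted p, and ran from 0 to 2 with each array left out. After quantile normalization Serpinb11 was called in place of Serpinb10, and without both pools of high ovarian transcripts Serpina9 was. The cause of these changes was not tested. The number of all genes called (988) changed more: 322 were called with that covariate, 562 without the pools of high ovarian signal (PRKO replicate 3 and PR+/- replicate 4), 4215 at an unadjusted p, and 581 (without PR+/- replicate 1) to 1165 with each array left out. The 2 called proteases became 1 without moderation, 0 with the covariate, 0 without the ovarian pools, 0 without PRKO replicates 1 and 5, 11 at an unadjusted p, and 1 to 4 with each array left out. Cofactors and receptors (7) became 4 without moderation, 3 with the covariate, and 3 to 7 with each array left out. Other inhibitors (7) became 12 at an unadjusted p and 6 to 8 with each array left out. Procollagen genes (3) became 1 after quantile normalization, 5 after median centring, 6 and 8 without the dimmest 30% and 50%, 6 with a variance trend, 1 without moderation, 0 with the covariate, 0 without the ovarian pools, 10 at an unadjusted p, and 0 to 5 with each array left out.

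With the replicate number as a block (a replicate block), the number of all genes called was 1042, and 2 serpins were called. Of these serpins 1 was shared with the unblocked fit, since Serping1 had an adjusted p of 0.0600 and Serpina9 one of 6.54e-04. The pools share only a number. Signal over background was not measured here and limits most the 36 serpins read at or below the median of all genes.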
